A study of Rattus norvegicus with 6 samples.

Results

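The integrated stress response (ISR) starts when a stress kinase phosphorylates the translation factor eIF2α, which lowers general protein synthesis while favouring translation of the transcription factor ATF4. ATF4 and its partner CHOP then raise effector genes, some of which act as brakes on the response, on growth signalling or on translation. PERK, encoded by Eif2ak3, is the eIF2α kinase of the endoplasmic reticulum (ER) and one arm of the unfolded protein response (UPR). Insulin-producing β-cells depend on this arm, since they load the ER with proinsulin.

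Messenger RNA of 8 effectors and brakes of the ISR was examined among the 12603 genes measured on these arrays. They were named by gene symbol (Trib3, Chac1, Vldlr, Ppp1r15a, Ppp1r15b, Ddit4, Sesn2 and Eif4ebp1), and their values were those of the probesets assigned to exactly 1 symbol, averaged per gene. All 8 were present, with 14 probesets between them. The choice was made with earlier results of these data known.

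The samples were from rat INS-1 insulinoma cells, which stand in for the β-cell. The line was a clonal derivative in which doxycycline (Dox) switches on GFP-tagged insulin 2 bearing C96Y, the Akita mutation. One group received Dox together with 4μ8c at 5 μM, which inhibits the endoribonuclease of the UPR sensor IRE1 and blocks the splicing of Xbp1 mRNA, another group received Dox alone, and the last was left untreated. Dox was given at 4 μg/ml according to the labels (the study's methods give a lower concentration), and treatment lasted 48 h. There were 6 arrays, 1 per group in each of 2 independent experiments, and 200 ng of total RNA was the input to each. Because every cell carried the mutant gene, Dox and mutant proinsulin as the source of a change cannot be told apart. Cells given the inhibitor without Dox were not analysed here.

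The deposited values are log2 signals in which each probeset was centred within its experiment, so that only differences between arrays of the same experiment can be read and no level is known. The presence of β-cell markers such as Ins1 and Ins2 could therefore not be checked. Of 11 β-cell markers measured (of 14 listed), 4 were lower with Dox, and of 5 markers of other islet and pancreatic cells (of 12 listed), glucagon (Gcg) fell by 2.22 on the log2 scale with Dox. With Dox+4μ8c 2 of the 11 fell, and against Dox 1 (Mafa) was higher, as was Gcg, by 0.86. Their part in the results was not tested. In experiment 1, 57.2% of the 25476 probesets had the same value (within 1e-06 on the log2 scale) on 2 or all 3 arrays, against 0.636% in experiment 2. Dox replicate 2 had the widest spread of values (SD 0.176 over all probesets, against 0.0502 to 0.117 on the other 5 arrays). The gap between 5′ and 3′ probesets of 4 poly-A spike-ins changed on it by a median of -0.65 on the log2 scale relative to the untreated array of its experiment, against -0.26 to 0.10 on the other treated arrays. Precision is limited throughout by having 6 arrays.

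The promoters of the genes that moved most, and of the paired eIF2α phosphatase subunits, are shown because they differ in the ATF4-type element they hold. They are RefSeq windows on the GRCr8 build, 250 bases before to 50 bases after the annotated start, and 7 of the 8 genes were matched in the promoter table. The searched motifs were the ATF4 element TGATGNAA, the cyclic AMP response element TGACGTCA, the ER stress element (a CCAAT box and CCACG, 9 bases apart) and the XBP1 element core GACGTGG, on both strands. Capitals mark the matches. The windows are chr3:161275484-161275783 on the minus strand for Trib3, chr3:126795881-126796180 on the plus strand for Chac1, chr20:28436988-28437287 on the minus strand for Ddit4, chr1:105139547-105139846 on the minus strand for Ppp1r15a and chr13:47129750-47130049 on the plus strand for Ppp1r15b.
Trib3: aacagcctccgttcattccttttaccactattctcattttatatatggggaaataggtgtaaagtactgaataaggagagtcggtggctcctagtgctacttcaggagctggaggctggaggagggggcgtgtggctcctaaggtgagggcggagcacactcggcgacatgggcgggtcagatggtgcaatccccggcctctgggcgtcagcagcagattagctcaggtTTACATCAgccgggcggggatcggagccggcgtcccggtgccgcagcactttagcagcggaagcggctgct
Chac1: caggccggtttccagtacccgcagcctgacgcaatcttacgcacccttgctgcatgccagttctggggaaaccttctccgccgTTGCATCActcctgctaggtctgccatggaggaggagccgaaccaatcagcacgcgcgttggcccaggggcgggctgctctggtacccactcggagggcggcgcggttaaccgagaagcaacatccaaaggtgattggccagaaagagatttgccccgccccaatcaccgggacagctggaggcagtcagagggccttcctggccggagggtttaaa
Ddit4: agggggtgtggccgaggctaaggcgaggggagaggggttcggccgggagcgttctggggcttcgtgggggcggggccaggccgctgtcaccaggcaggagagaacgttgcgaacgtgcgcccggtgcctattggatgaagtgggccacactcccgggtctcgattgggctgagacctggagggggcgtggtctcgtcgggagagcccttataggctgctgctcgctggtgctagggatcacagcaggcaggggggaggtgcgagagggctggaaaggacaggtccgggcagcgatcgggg
Ppp1r15a: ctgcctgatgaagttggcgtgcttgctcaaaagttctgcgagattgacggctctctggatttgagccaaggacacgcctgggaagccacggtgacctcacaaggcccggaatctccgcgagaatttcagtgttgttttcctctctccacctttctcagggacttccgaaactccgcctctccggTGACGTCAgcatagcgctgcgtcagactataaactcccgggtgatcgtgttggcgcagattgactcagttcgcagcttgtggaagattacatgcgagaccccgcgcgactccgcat
Ppp1r15b: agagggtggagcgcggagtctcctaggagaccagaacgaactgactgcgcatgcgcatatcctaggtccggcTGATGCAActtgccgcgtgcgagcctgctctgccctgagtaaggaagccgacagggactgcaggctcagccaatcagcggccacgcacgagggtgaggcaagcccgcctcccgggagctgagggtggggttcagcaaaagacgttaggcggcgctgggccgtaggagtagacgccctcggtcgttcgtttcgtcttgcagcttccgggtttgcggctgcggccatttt
The ATF4 element stood in 3 of the 7 windows (Trib3, Chac1 and Ppp1r15b) and in 3.98% of 33469 promoters. Its first base lay 21 bases before the start in Trib3, 167 in Chac1 and 178 in Ppp1r15b. The cyclic AMP response element stood in 1 window, 66 bases before the start of Ppp1r15a, and in 1.83% of all promoters. The window of Ddit4 held none of the 4 motifs. The ER stress element and the XBP1 element core were in 0 of the 7 windows, against 0.0657% and 2.32% of all promoters. A match is a description of letters, and none of these factors was measured on these promoters.

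With Dox, 3 of the 8 genes rose past the test (adjusted p under 0.05 over all genes) and none fell, where 4.42% of all genes were called higher and 2.01% lower. The risen genes were Trib3, Chac1 and Ddit4. In both experiments the Dox array lay above the untreated array for 6 of the 8 genes, which was so for 26.6% of all genes, and below it in both for 0, against 24.8%. Compared arrays with equal values count in neither direction, which lowers the shares over all genes. In experiment 1, 5556 of the 12603 genes were tied on at least 2 arrays, and of the 8 only Eif4ebp1 was. A rise of at least 1.5 fold in each experiment was seen for 2 (Trib3 and Chac1) and for 0.77% of all genes. The median log2 change of the 8 was 0.38, against 0.01 over all genes. When the experiment was left out of the model, the 3 became 1 (Chac1), and the genes called higher among all became 303 (557 with it).

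With Dox+4μ8c against untreated, the same 3 genes passed and none fell, where 1.17% of all genes were called higher and 1.13% lower. In both experiments the Dox+4μ8c array lay above the untreated array for 6 of the 8 genes, against 23.9% of all genes, and below it in both for 0, against 28.9%. Ties in experiment 1 lower these shares over all genes too. Trib3 and Chac1 again rose at least 1.5 fold in each experiment, against 0.19% of all genes. The median log2 change of the 8 was 0.31, against 0.00 over all genes. Both comparisons use the same untreated arrays and are not independent. Leaving the experiment out of the model gave 0 of the 8 and 0 of all 12603 genes. Leaving out Dox replicate 1 or Dox replicate 2 gave 5 of the 8, while the genes called higher among all became 318 (148 with every array), and leaving out any untreated or Dox+4μ8c array gave 2 of the 8 and 8 to 48 of all genes.

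Between Dox+4μ8c and Dox, none of the 8 passed the test, where 1.61% of all genes were called lower and 0.175% higher. Before adjustment, p was under 0.05 for 2 lower genes (Chac1 and Ddit4) and 0 higher genes, against 8.44% and 2.79% of all genes. In both experiments the Dox+4μ8c array lay below the Dox array for 3 genes (Chac1, Ddit4 and Ppp1r15a) and above it for 3 (Sesn2, Ppp1r15b and Vldlr), against 26.9% and 19.0% of all genes. The shares over all genes are again lowered by ties in experiment 1. The median log2 difference of the 8 was -0.04, against -0.01 over all genes. Without Dox replicate 1, Chac1 passed, and the genes called lower among all became 580 (203 with every array).

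**Figure D1:**
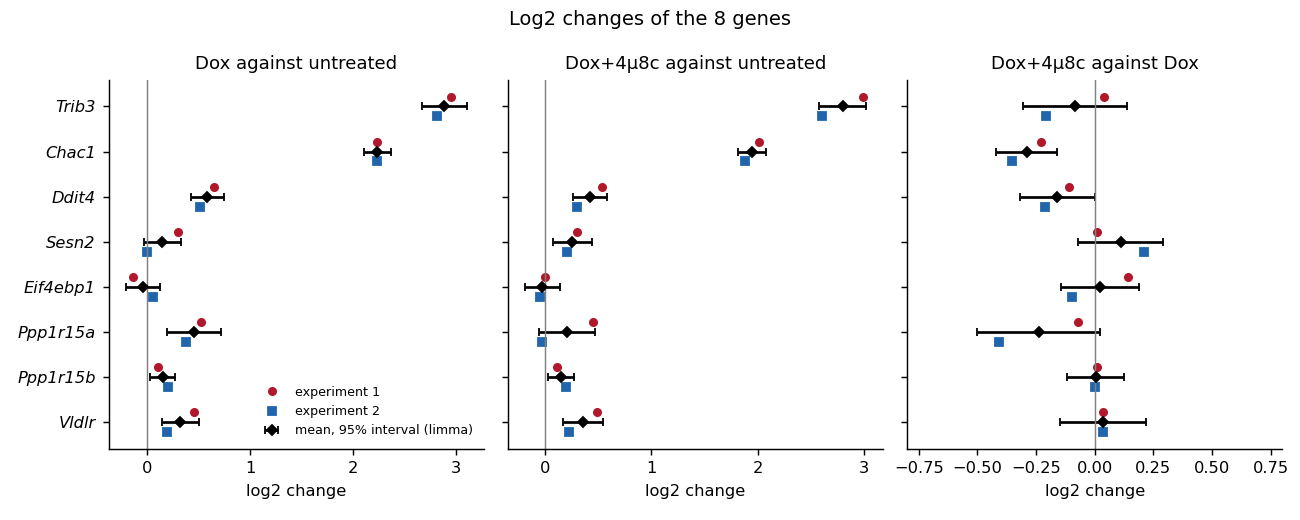
Log2 changes of the 8 genes in 3 comparisons, with the mean over both experiments and its 95% interval from limma (diamonds and bars) and the value of each experiment (circles and squares). Trib3 and Chac1 lie near 3 and 2 in both comparisons with untreated cells, Eif4ebp1 lies near 0, and the third panel, on a narrower axis, spans -0.5 to 0.3.

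Trib3 (chromosome 3, 161269939 to 161275533), a pseudokinase raised by ATF4 and CHOP that has been reported to restrain AKT and ATF4, had the highest log2 change of all genes in both comparisons with untreated cells. In experiment 1 its centred log2 value was 0.05 with Dox+4μ8c, 0.01 with Dox and -2.94 in untreated cells. Experiment 2 gave 1.23 with Dox+4μ8c, 1.44 with Dox and -1.38 in untreated cells. Both treated arrays stood far above the untreated array of their experiment. The log2 change with Dox was 2.88 (7.38 fold, 95% interval 6.33 to 8.6, adjusted p = 0.00016), and with Dox+4μ8c it was 2.80 (6.96 fold, 5.97 to 8.11, adjusted p = 0.00019). Without the experiment term the adjusted p-values were 0.0838 and 0.151. Dox+4μ8c and Dox differed by -0.08 on the log2 scale (95% interval -0.30 to 0.14, adjusted p = 0.76), and the sign differed between experiments, at 0.04 in experiment 1 and -0.21 in experiment 2.

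The 3 Trib3 probesets gave the same order against untreated cells. Their log2 change with Dox was 3.11, 2.57 and 2.97, and with Dox+4μ8c it was 2.93, 2.43 and 3.04. Between Dox+4μ8c and Dox they differed among themselves, at -0.18, -0.14 and 0.06, and none passed on its own. The sign of the small inhibitor difference in Trib3 thus depended on the probeset.

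Chac1 (chromosome 3, 126796131 to 126799352), a γ-glutamylcyclotransferase that degrades glutathione, ranked 3 of 12603 in both comparisons with untreated cells. Its centred log2 value in experiment 1 was 0.00 with Dox+4μ8c, 0.23 with Dox and -2.01 in untreated cells. Experiment 2 gave 0.69 with Dox+4μ8c, 1.04 with Dox and -1.19 in untreated cells. The Dox+4μ8c array lay between Dox and untreated in each experiment, much nearer to Dox. The log2 change with Dox was 2.23 (4.7 fold, 95% interval 4.29 to 5.15, adjusted p = 8.6e-05) and nearly the same in experiments 1 and 2, at 2.24 and 2.23. With Dox+4μ8c it was 1.94 (3.84 fold, 3.51 to 4.21, adjusted p = 0.00011). The difference between Dox+4μ8c and Dox was -0.29 (95% interval -0.42 to -0.16, adjusted p = 0.067), with -0.23 and -0.35 in experiments 1 and 2. It did not pass over all genes, and it passed without Dox replicate 1 (adjusted p = 0.0359) and when genes tied in experiment 1 were left out (adjusted p = 0.0358). Quantile normalization turned the direction, to 0.04 (adjusted p = 0.951), and 1 of all genes was then called lower. It gives the arrays of an experiment the same distribution. Before it, the centred values spread less over all probesets with Dox+4μ8c than with Dox (SD 0.0502 and 0.0797 in experiment 1, 0.0874 and 0.176 in experiment 2). Whether this turned the direction was not tested. Without the experiment term the rise with Dox+4μ8c did not pass (adjusted p = 0.12).

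**Figure D2:**
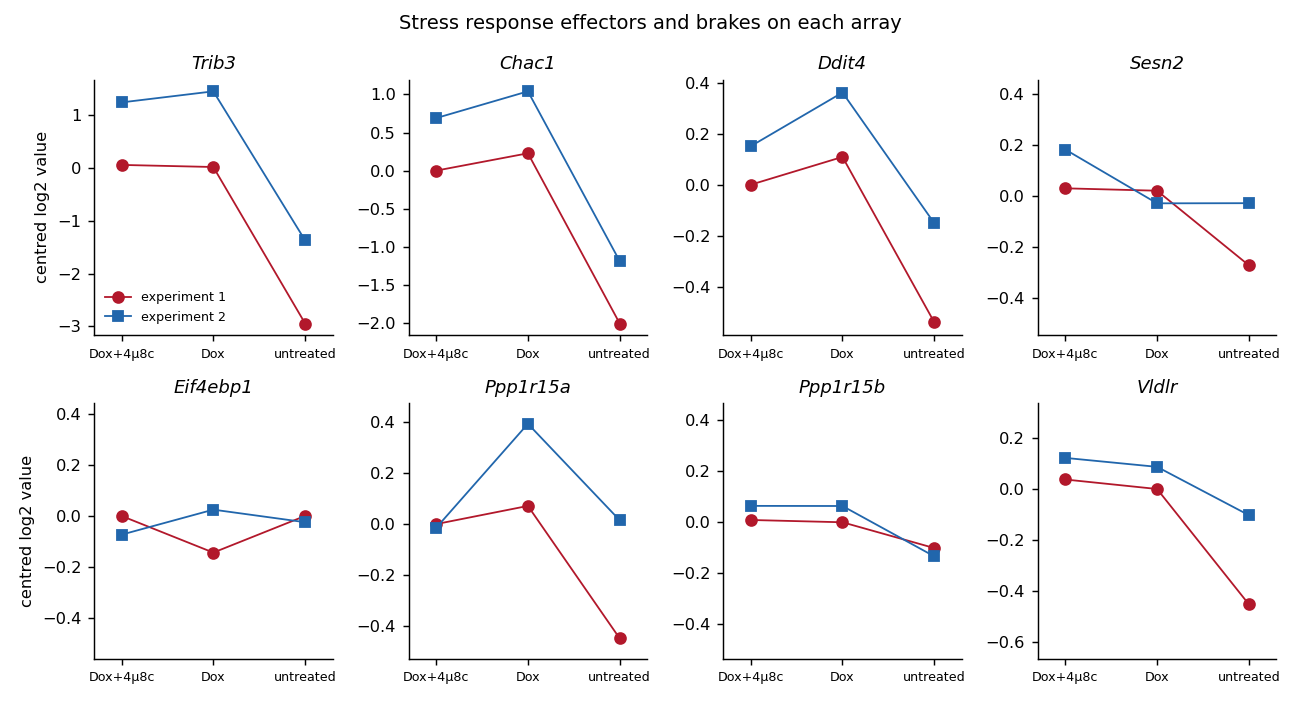
Centred log2 value of each of the 8 genes (y axes with their own scales) on the Dox+4μ8c, Dox and untreated arrays, joined within experiment 1 (circles) and experiment 2 (squares). Lines are to be compared for shape and not for height, since each experiment was centred on its own. Trib3, Chac1 and Ddit4 drop at the untreated array in both.

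Vldlr (chromosome 1, 234239769 to 234272150), a lipoprotein receptor that ATF4 raises in stressed mouse cells, did not pass in any comparison. Its centred log2 value in experiment 1 was 0.04 with Dox+4μ8c, 0.00 with Dox and -0.45 in untreated cells. Experiment 2 gave 0.12 with Dox+4μ8c, 0.09 with Dox and -0.10 in untreated cells. Both treated arrays were above untreated in each experiment, by more in experiment 1. The log2 change was 0.32 with Dox (1.25 fold, 95% interval 1.10 to 1.42, adjusted p = 0.066) and 0.36 with Dox+4μ8c (1.28 fold, 1.13 to 1.45, adjusted p = 0.082). The 2 treatments differed by 0.04 (95% interval -0.15 to 0.22, adjusted p = 0.89). With Dox it passed without untreated replicate 2 (adjusted p = 0.0389) or Dox replicate 2 (0.0496) and with tied genes left out (0.0369), and with Dox+4μ8c it passed without either Dox array (0.0217), with array weights (0.0438) and with tied genes left out (0.0446).

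The 4 Vldlr probesets were alike. Their log2 change with Dox was between 0.39 and 0.49 in experiment 1 and between 0.05 and 0.29 in experiment 2. With Dox+4μ8c the ranges were 0.47 to 0.52 and 0.14 to 0.29. All 8 values with each treatment were above 0, but probesets of 1 gene read the same RNA and are not replicates.

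**Figure D3:**
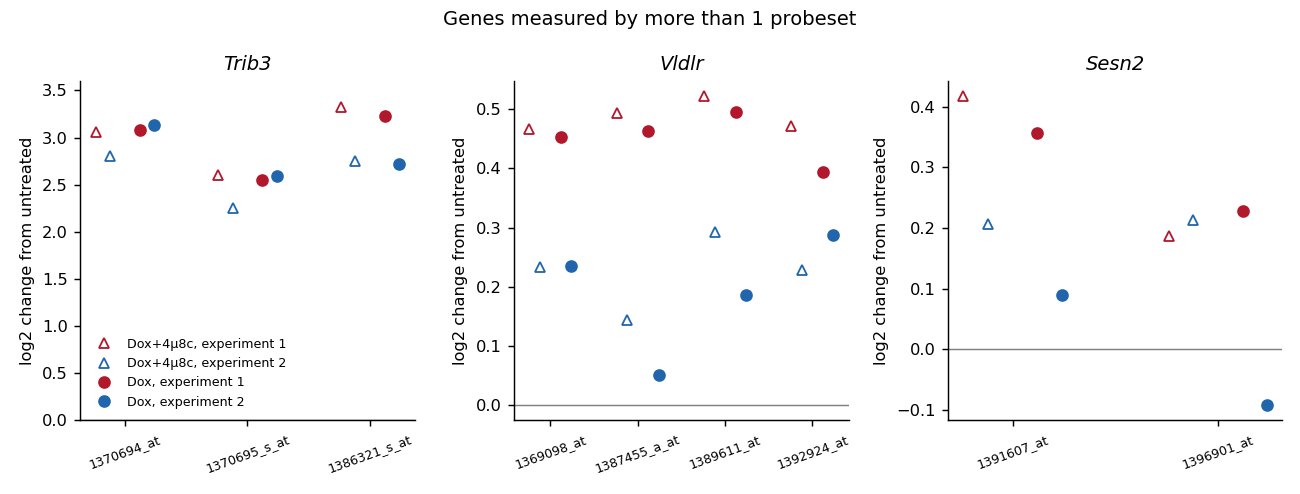
Log2 change from untreated cells of each probeset of Trib3, Vldlr and Sesn2 with Dox+4μ8c (open triangles) and Dox (filled circles) in experiments 1 and 2. Vldlr probesets sit higher in experiment 1 (0.39 to 0.52) than in experiment 2 (0.05 to 0.29), and the Sesn2 probesets spread from -0.09 to 0.42.

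The eIF2α phosphatase is formed by a catalytic subunit of protein phosphatase 1 and either the stress-induced subunit GADD34, encoded by Ppp1r15a (chromosome 1, 105136521 to 105139596), or the constitutive subunit CReP, encoded by Ppp1r15b (chromosome 13, 47130000 to 47137805). Both reverse eIF2α phosphorylation. Neither mRNA passed the test in any comparison.

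Ppp1r15a had centred log2 values in experiment 1 of 0.00 with Dox+4μ8c, 0.07 with Dox and -0.45 in untreated cells. In experiment 2 it had -0.02 with Dox+4μ8c, 0.39 with Dox and 0.02 in untreated cells. Dox was above untreated in each experiment, whereas Dox+4μ8c stood near Dox in experiment 1 and at the untreated value in experiment 2. The log2 change with Dox was 0.45 (1.36 fold, 95% interval 1.14 to 1.64, adjusted p = 0.068), and it passed without Dox replicate 1 (adjusted p = 0.0391), without either Dox+4μ8c array (0.0307) and with tied genes left out (0.0397). With Dox+4μ8c it was 0.21 (95% interval -0.05 to 0.47, adjusted p = 0.44), from 0.45 and -0.03 in experiments 1 and 2. Dox+4μ8c and Dox differed by -0.24 (95% interval -0.50 to 0.02, adjusted p = 0.50). Its SE of 0.11 was the largest of the 8 genes.

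Ppp1r15b moved little. Its centred log2 value in experiment 1 was 0.01 with Dox+4μ8c, 0.00 with Dox and -0.10 in untreated cells. In experiment 2 it was 0.06 with Dox+4μ8c, 0.06 with Dox and -0.13 in untreated cells. The treated arrays were slightly above untreated in both experiments and level with each other. The log2 change was 0.15 with Dox (1.11 fold, 95% interval 1.02 to 1.21, adjusted p = 0.16) and 0.15 with Dox+4μ8c (1.11 fold, 1.02 to 1.21, adjusted p = 0.21). The difference between the treatments was 0.00 (95% interval -0.12 to 0.13, adjusted p = 0.98), so that changes beyond about 1.09 fold upwards lay outside the interval. Whether the 2 subunits differed in their response was not tested.

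Ddit4, Sesn2 and Eif4ebp1 encode brakes on growth signalling and translation. Ddit4 (chromosome 20, 28434938 to 28437037) encodes REDD1, which lowers mTORC1 activity through TSC1 and TSC2. Its centred log2 value in experiment 1 was 0.00 with Dox+4μ8c, 0.11 with Dox and -0.54 in untreated cells. In experiment 2 it was 0.15 with Dox+4μ8c, 0.36 with Dox and -0.15 in untreated cells. The order Dox, Dox+4μ8c, untreated from high to low held in each experiment.

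The log2 change of Ddit4 with Dox was 0.58 (1.49 fold, 95% interval 1.34 to 1.67, adjusted p = 0.0063), ranking 125 of 12603. With Dox+4μ8c it was 0.42 (1.34 fold, 1.2 to 1.49, adjusted p = 0.036), ranking 94. The rise with Dox passed with each array left out in turn, at an adjusted p of up to 0.0452, but not without the experiment term (0.0876). That with Dox+4μ8c was lost without either untreated array (adjusted p = 0.155 and 0.0702) or either Dox+4μ8c array (0.309 and 0.156), without the experiment term (0.236) and when every probeset was fitted on its own (0.0878). The difference between Dox+4μ8c and Dox was -0.16 (95% interval -0.32 to -0.00, adjusted p = 0.45), with -0.11 and -0.21 in experiments 1 and 2.

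Sesn2 (chromosome 5, 149986304 to 150005255) encodes sestrin 2, a leucine-binding protein that holds back mTORC1 through the GATOR complexes. Its centred log2 value in experiment 1 was 0.03 with Dox+4μ8c, 0.02 with Dox and -0.27 in untreated cells. In experiment 2 it was 0.18 with Dox+4μ8c, -0.03 with Dox and -0.03 in untreated cells. Dox was level with untreated in experiment 2, and Dox+4μ8c was above untreated in both. The log2 change with Dox was 0.15 (95% interval -0.04 to 0.33, adjusted p = 0.35) and with Dox+4μ8c 0.26 (0.07 to 0.44, adjusted p = 0.17), which passed without either Dox array (adjusted p = 0.0267). Dox+4μ8c and Dox differed by 0.11 (95% interval -0.07 to 0.29, adjusted p = 0.64). The 2 probesets disagreed on Dox in experiment 2, at 0.09 and -0.09.

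Eif4ebp1 (chromosome 16, 71495457 to 71508845) encodes 4E-BP1, which binds the cap-binding factor eIF4E and blocks cap-dependent translation, and which is an ATF4 target in mouse β-cells. Its centred log2 value in experiment 1 was 0.00 with Dox+4μ8c, -0.14 with Dox and 0.00 in untreated cells. In experiment 2 it was -0.07 with Dox+4μ8c, 0.02 with Dox and -0.02 in untreated cells. The order of the arrays differed between experiments, and in experiment 1 the Dox+4μ8c and untreated values were tied. The log2 change was -0.05 with Dox (0.968 fold, 95% interval 0.863 to 1.09, adjusted p = 0.74) and -0.02 with Dox+4μ8c (0.983 fold, 0.877 to 1.1, adjusted p = 0.90). Dox+4μ8c and Dox differed by 0.02 (95% interval -0.14 to 0.19, adjusted p = 0.93). A rise of 1.5 fold with either treatment lay outside these intervals.

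Of the log2 rise with Dox, Trib3 kept 97.1% with Dox+4μ8c, Chac1 87.0% and Ddit4 72.5%. Only genes past the test with Dox were given a share, a choice that favours high Dox changes and thus low shares. Both changes in a share use the same untreated arrays and are not independent. The shares were 101.0%, 89.8% and 83.2% in experiment 1 and 92.6%, 84.2% and 58.9% in experiment 2. The order Trib3, Chac1, Ddit4 was the same in both experiments. With 1 array per group in each experiment, differences between these shares were not tested. With quantile normalization, which gives the arrays of an experiment equal spread, the median of the 3 shares was 103.0%, against 87.0% without it. By qPCR relative to β-actin, the study reported Trib3 as induced by mutant proinsulin and reduced by the inhibitor. On these arrays the Trib3 difference between Dox+4μ8c and Dox did not pass the test.

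Other genes of the pathway were counted in lists written with earlier results of these data known, so that their direction is no independent evidence. Of 11 ISR transcription factors, 7 rose with Dox and none fell. Atf4 itself was at a log2 change of 0.99 with Dox (adjusted p = 0.0016) and 0.82 with Dox+4μ8c (adjusted p = 0.0065). Ddit3, which encodes CHOP, was at 1.20 with Dox (adjusted p = 0.001) and 1.20 with Dox+4μ8c (adjusted p = 0.0023). By qPCR, the study reported no significant effect of mutant proinsulin on CHOP mRNA, which differs from the rise on these arrays. The reason for this difference was not tested. With Dox+4μ8c 7 also rose, and between Dox+4μ8c and Dox none of the 11 passed. Without the experiment term the counts of risen genes were 1 and 0, and the 7 with Dox+4μ8c became 2 without Dox+4μ8c replicate 1, 3 without Dox+4μ8c replicate 2 and 4 without untreated replicate 1.

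Of 24 other ATF4 targets measured, which act mainly in amino acid supply, 18 rose with Dox and 14 with Dox+4μ8c. None fell against untreated cells. Their median log2 change was 0.62 with Dox and 0.45 with Dox+4μ8c. Between Dox+4μ8c and Dox, 1 was lower, Gdf15, a stress-induced cytokine, by -0.48 (adjusted p = 0.024). Without the experiment term 4 and 0 rose, and the 14 became 0 without Dox+4μ8c replicate 1, 4 without Dox+4μ8c replicate 2, 1 without untreated replicate 1 and 8 without untreated replicate 2. The fall of Gdf15 was lost without either Dox+4μ8c array and with quantile normalization. The number of lower genes in this list changed whichever array was left out.

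Upstream of ATF4, 3 of 14 genes for eIF2 kinases, eIF2 and its exchange factor eIF2B rose with Dox. They were Eif2ak3 (PERK) at 0.75 (adjusted p = 0.0043), the eIF2B subunit gene Eif2b3 at 0.30 (adjusted p = 0.037) and the eIF2β gene Eif2s2 at 0.25 (adjusted p = 0.032). The other 3 kinase genes (Eif2ak1, Eif2ak2 and Eif2ak4) lay between -0.02 and 0.06 and Eif2s1, which encodes eIF2α, at 0.00, and none of these passed. Eif2ak2, Eif2ak4 and Eif2s1 had a change of 0.0 in experiment 1 in each comparison. Their means thus rest on experiment 2, where they were at 0.12, -0.05 and 0.01 with Dox. Eif2ak3 was at 0.08 with Dox+4μ8c (adjusted p = 0.67), and it was the only gene of this list to fall against Dox, by 0.67 on the log2 scale (adjusted p = 0.018), with -0.66 and -0.69 in experiments 1 and 2. The difference of the kinase mRNA between Dox+4μ8c and Dox passed the test, whereas those of Trib3 (adjusted p = 0.76) and Chac1 (adjusted p = 0.067) did not. Whether Trib3 and Chac1 differ from Eif2ak3 was not tested. The fall of Eif2ak3 was lost without either Dox+4μ8c array and with quantile normalization. The 3 risen genes became 1 without the experiment term, without either untreated array or without either Dox+4μ8c array.

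None of 16 relatives and partners of the 8 genes (of 18 listed) passed in any comparison. Their log2 change with Dox lay between -0.16 and 0.14. Among them the Trib3 relatives Trib1 and Trib2 were at -0.16 and -0.03, Chac2 at -0.07, Ddit4l at -0.00, Sesn1 and Sesn3 at -0.04 and -0.03, Eif4ebp2 at -0.12 and the reelin receptor gene Lrp8, a relative of Vldlr, at 0.10. Trib2 and Sesn3 had a change of 0.0 in experiment 1 in each comparison, so their means rest on experiment 2. The 3 genes for catalytic subunits of protein phosphatase 1 (Ppp1ca, Ppp1cb and Ppp1cc) were between -0.07 and -0.02. Without Dox replicate 1, 2 of the 16 fell with Dox. Of 18 genes listed for mTORC1 and cap-dependent translation, 1 rose with Dox, where 4.42% of all genes were called higher, and none passed with Dox+4μ8c. The risen gene was Txnip, at 0.27 (adjusted p = 0.022), an inhibitor of thioredoxin and itself no component of mTORC1 or of cap-dependent translation. Its call was lost without the experiment term, without either untreated array or without either Dox+4μ8c array.

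As a contrast, 17 of 18 XBP1s targets rose with Dox, 6 with Dox+4μ8c, and in the comparison of Dox+4μ8c with Dox 13 fell. Their median log2 difference between Dox+4μ8c and Dox was -0.50, against -0.04 for the 8 effectors and brakes and -0.09 for the other ATF4 targets. Dnajb9, which encodes the ER co-chaperone ERdj4, fell against Dox by 1.05 on the log2 scale (adjusted p = 0.013) and was at 0.20 against untreated cells (adjusted p = 0.42). Several of these targets had been seen to fall in earlier results, and without either Dox+4μ8c array the 13 became 0, as did the calls among all 12603 genes in this comparison. The 6 became 1 without Dox+4μ8c replicate 1, 2 without Dox+4μ8c replicate 2, 2 without untreated replicate 1 and 0 without the experiment term. With quantile normalization the 13 became 1, and 1 of all genes was called lower. A test between the lists was not made.

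**Figure D4:**
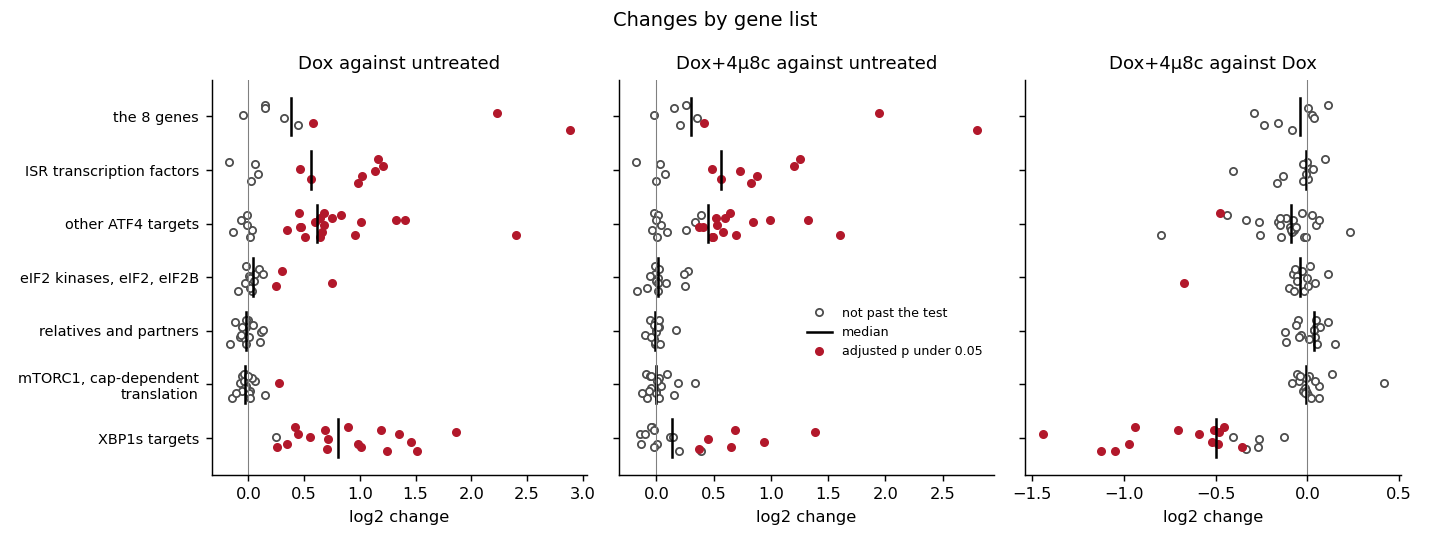
Log2 change of every gene of 7 lists (rows) in 3 comparisons, with genes past the test filled, the others open and the median of each list as a bar. In the third panel the 8 effectors and brakes have a median of -0.04 and the XBP1s targets one of -0.50.

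**Figure D5:**
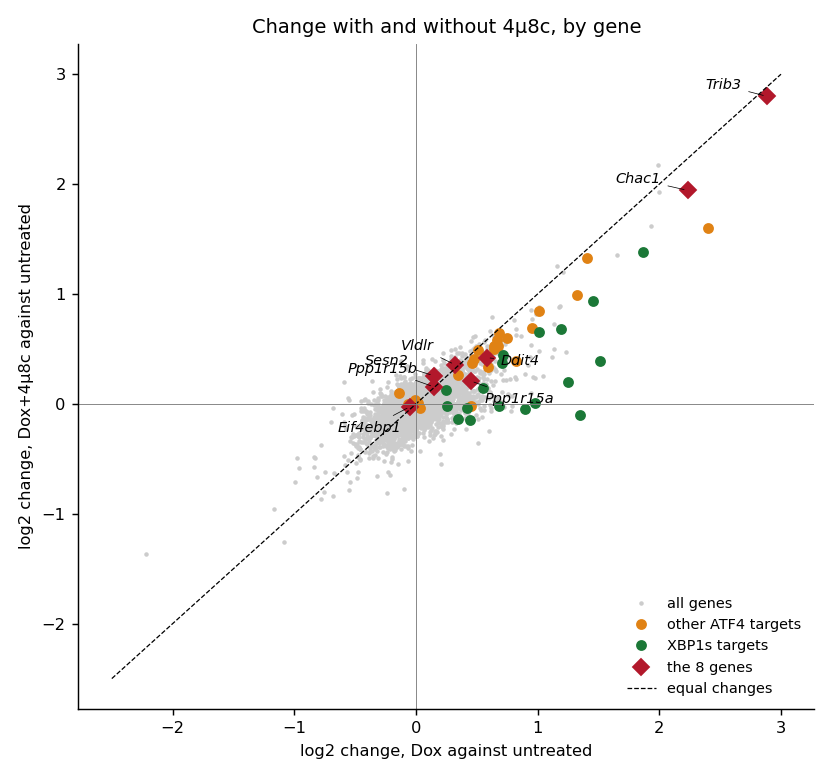
Log2 change with Dox+4μ8c (y axis) and with Dox (x axis), both against the same untreated arrays, for 12603 genes. Trib3 (2.80 with Dox+4μ8c and 2.88 with Dox) and Chac1 (1.94 and 2.23) lie near the dashed line of equal changes, and several XBP1s targets such as Dnajb9 (0.20 and 1.25) lie well below it.

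The genes with the pattern most like each risen gene were found by the Euclidean distance over its 4 log2 changes from untreated cells, among 12595 genes outside the 8. Nearest to Trib3 were Serpinb9b (distance 1.72) and Ifi27l2b (1.77), neither of them close. Ifi27l2b (0.33) and the fucosyltransferase gene Fut1 (0.67) were nearest to Chac1. Nearest to Ddit4 were the leucyl-tRNA synthetase gene Lars1 (0.05) and the synaptotagmin gene Syt4 (0.07). Lars1 was at 0.60 and 0.51 with Dox in experiments 1 and 2 and at 0.54 and 0.29 with Dox+4μ8c, against 0.65, 0.51, 0.54 and 0.30 for Ddit4.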

How the data were processed

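The authors processed Affymetrix 3′ IVT arrays with RMA, as the submitters' processing notes state without a version, and deposited log2 values centred per probeset within each experiment (a median of 0, within 1e-05, over the 3 arrays in 100% of probesets of experiment 1, and in 0.856% of experiment 2, where 100% could have a median of 0 over 4 arrays). How the 25476 probesets were kept is not given in the sources used here. Of these, 17978 had 1 gene symbol, updated through Entrez IDs to GRCr8 RefSeq names, 378 had several, 7068 none and 52 were controls. Values were averaged per gene.

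Linear models were fitted in R 4.3.3 by limma 3.58.1 with moderated tests (eBayes, two-sided, Benjamini-Hochberg adjustment over 12603 genes, 2 residual and 4.25 prior degrees of freedom), with the experiment (the replicate number in the labels) as a term, because the centring leaves only differences within an experiment to be read. The pairing rests on the methods' independent experiments. Deviations from group means correlated at r = 0.0311 to 0.1 over all genes and at r = 0.94 to 0.946 over the 8 genes. Centring changes offsets shared within an experiment, so neither r shows how alike the cultures were. Among the 8 genes an offset between experiments remained in the centred values, which the experiment term takes out. Nothing else says how the cultures were kept apart, so p-values measure the spread between these arrays. Python 3.11.15, pandas 2.3.3 and numpy 2.4.6 made the tables and matplotlib 3.10.9 the figures.

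The 8 genes, the lists and the tests were chosen with earlier results of these data known. Named genes were the 8, the 2 nearest genes by pattern to each risen one, and listed genes past the test or defining for a list. Alternatives were the fit without the experiment term, other normalizations, the median over probesets, single probesets, robust moderation, array weights, other thresholds, each array left out and, added after the data were seen, tied genes left out.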

Additional observations from a re-analysis of the deposited data

How the results depend on the processing

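The fit without the experiment term (no replicate block) gave 1 of the 8 genes higher with Dox (3 with it) and 0 with Dox+4μ8c (3 with it). Among all genes it gave 303 higher with Dox (557 with it) and 0 with Dox+4μ8c (148 with it). Risen members were 1 of the eIF2 list with Dox, 1 and 0 of the ISR transcription factors with Dox and Dox+4μ8c, 4 and 0 of the other ATF4 targets, 0 of the XBP1s targets with Dox+4μ8c and 0 of the mTORC1 list with Dox. An adjusted p under 0.10 gave 5 of the 8 genes higher with Dox and 1 lower with Dox+4μ8c than with Dox. Calls among all genes were not counted at 0.10. Leaving out the 5556 genes tied in experiment 1 also gave 5 and 1, where fewer genes were tested. Among all genes, 765 of 7047 were then higher with Dox (557 of 12603 with tied genes kept). Between Dox+4μ8c and Dox, 308 were lower (203 with tied genes kept). Without tied genes, calls thus rose among all genes and not only among the 8. Quantile normalization of the centred values gave a median share of induction kept of 103% (87.0% otherwise), log2 differences between Dox+4μ8c and Dox of 0.12 for Trib3 and 0.0377 for Chac1, in place of falls, 1 risen gene of the eIF2 list and 0 of the mTORC1 list with Dox, and 0, 0 and 1 lower genes of the eIF2, other ATF4 and XBP1s lists between Dox+4μ8c and Dox. Array weights gave 1 and 3 risen genes of the eIF2 list with Dox and Dox+4μ8c. The fit without the experiment term keeps offsets between the separately centred experiments in its spread. Quantile normalization gives the arrays of an experiment equal spread, although the centred values spread less with Dox+4μ8c than with Dox in both experiments. The cause of the shifts was not tested. The Trib3 probeset that differed in sign was at 0.0641.

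When an array is left out, the remaining array of its group is assumed to vary like the others. Calls among all genes also rose and fell widely between these fits. The ranges below thus do not describe the listed genes alone. The 8 genes then gave 3 to 4 higher with Dox, 2 to 5 with Dox+4μ8c and 0 to 1 lower between Dox+4μ8c and Dox. Risen genes with Dox were 1 to 2 in the eIF2 list, 0 to 2 in the mTORC1 list, and with Dox+4μ8c 0 to 3 in the eIF2 list, 2 to 7 ISR transcription factors, 0 to 17 other ATF4 targets, 1 to 7 XBP1s targets and 0 to 1 in the mTORC1 list. Lower genes with Dox were 0 to 2 relatives and partners, 0 to 1 in the mTORC1 list and 0 to 1 other ATF4 targets. Between Dox+4μ8c and Dox, lower genes were 0 to 1 in the eIF2 list, 0 to 1 ISR transcription factors, 0 to 2 other ATF4 targets and 0 to 16 XBP1s targets, and higher ones 0 to 1 among relatives and partners, in the mTORC1 list and among other ATF4 targets. Signs turned only for small differences. Between Dox+4μ8c and Dox the log2 range was -0.244 to 0.0745 for Trib3, -0.0135 to 0.234 for Sesn2, -0.0858 to 0.131 for Eif4ebp1, -0.0214 to 0.031 for Ppp1r15b and -0.0305 to 0.103 for Vldlr, and for Eif4ebp1 it was -0.156 to 0.0614 with Dox and -0.097 to 0.0482 with Dox+4μ8c. Of 351 alternative values for single genes, 312 kept direction and side of the threshold. These are not 351 separate checks. With the experiment term, leaving out either array of the group outside a comparison gives the same fit. For genes with 1 probeset, the median over probesets leaves the values unchanged.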
